A study of Drosophila melanogaster with 18 samples.

Results

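Messenger RNA of 31 genes of epithelial cell junctions was followed in the eye-antennal disc of Drosophila melanogaster, a sheet of larval epithelium from which the eye and antenna of the adult fly develop. The genes were taken by symbol from a list of junction genes, drawn up with earlier results of these data known: 22 encode proteins of the septate junction and 9 encode proteins of the adherens junction. All 31 were matched by identifier among the 17529 genes of the deposited table, aka through its synonym, since the annotation lists it as bark. All 31 also passed the filter on low counts, which kept 10834 genes. There were 18 libraries, 3 for each of 6 genotypes, and the age of the larvae is not given in the labels.

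The mutant genotypes were scrib1 (called scrib), fosKM (fos), CtBP87De-10 (CtBP), the double mutant scrib1 fosKM (scrib fos) and the double mutant scrib1 CtBP87De-10 (CtBP scrib). The control carried an FRT82B arm without these alleles. All 6 genotypes, control included, carried eyFLP and that FRT82B arm over an FRT82B arm with a cell-lethal mutation, which leaves discs made largely of cells homozygous for the tested arm. A library held pooled material from sorts on several days, so p-values measure the spread between such pools, and no source used here says that the pools came from separate crosses. Library totals ran from 22294940 to 35510575 counts. The retinal gene eya (357 ± 6.42 CPM, SD, n = 3) and the antennal gene Dll (147 ± 11.04 CPM) were both present in control, as in the labelled tissue. Levels are CPM, counts scaled to a common total over the tested genes after TMM scaling (a correction for composition). Differences are log2 fold changes of edgeR's quasi-likelihood test with their standard error (SE), called at an adjusted p below 0.05 over all 10834 genes. In a bulk sample, fewer cells of a type and less RNA per cell cannot be told apart.

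Adherens junctions form a belt near the apex of epithelial cells, where the cadherin encoded by shg binds neighbouring cells and holds actin through catenins. In insects the septate junction lies basal to that belt and closes the space between cells. Its core is a large, stable complex of adhesion proteins, claudins, cytoplasmic scaffolds and the sodium pump, with a separate set of proteins at the corners where 3 cells meet. The scrib protein sits at the septate junction level and sets the border between apical and basolateral membrane. The transcription factor Fos (encoded by kay) acts downstream of JNK signalling, and CtBP is a transcriptional co-repressor.

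The targeted transcripts were checked first. CtBP transcript was at 287 ± 8.05 CPM in CtBP discs and 343 ± 15.2 CPM in CtBP scrib discs, against 822 ± 14.8 CPM in control. The kay transcript was not lower in fos discs (log2 fold change -0.08, edgeR adjusted p = 1) and the scrib transcript was 0.20 lower in scrib discs on the log2 scale (edgeR adjusted p = 0.0232), while it was not called against control in scrib fos (-0.11, edgeR adjusted p = 0.216) or CtBP scrib (0.03, edgeR adjusted p = 0.771). For the fos and scrib alleles the RNA level is therefore a weak check of the label. Within every genotype replicate 1 had the highest share of heat shock Hsp70 counts (0.172% to 0.744%). Among the 3 scrib libraries, replicate 1 had the highest level for 13 of 22 septate and 7 of 9 adherens junction genes. The part of these features in the results below was not tested, and values without replicate 1 are given where they end a call.

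Per kilobase of exon, arm was the most abundant member in control (327 ± 8.03 RPKM, CPM divided by exon length in kilobases, SD, n = 3), followed by Lac (198 ± 8.22) and ed (171 ± 3.57). The lowest was moody, at 7.42 ± 0.889 RPKM, followed by cno (19.7 ± 0.584), Vinc (25.0 ± 2.41) and yrt (28.7 ± 0.397). The other 24 members lay between 39.96 ± 0.789 (aka) and 157 ± 4.01 RPKM (Cont). Neighbours in that middle range often differed by less than their SD, as with Nrx-IV (121 ± 1.08) and kune (122 ± 2.69).

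Loss of both CtBP and scrib raised most of the septate junction genes at once. Against control, 16 of the 22 were higher and 1 was lower in CtBP scrib discs, where 59.4% of all tested genes were called, 31.1% higher and 28.3% lower. Against scrib discs, 16 were higher and none lower, where 18.7% of all tested genes were called, 9.57% higher and 9.14% lower. The rises were small: 1.13-fold to 1.39-fold against scrib. Over all 22, called or not, the median log2 difference was 0.26 against scrib and 0.39 against control, while the medians over all tested genes were -0.002 and 0.009. Of the 9 adherens junction genes 1 was higher than in scrib (median 0.07), and 5 were higher and 2 lower than in control (median 0.22). A difference between the junction types was not tested.

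**Figure D1:**
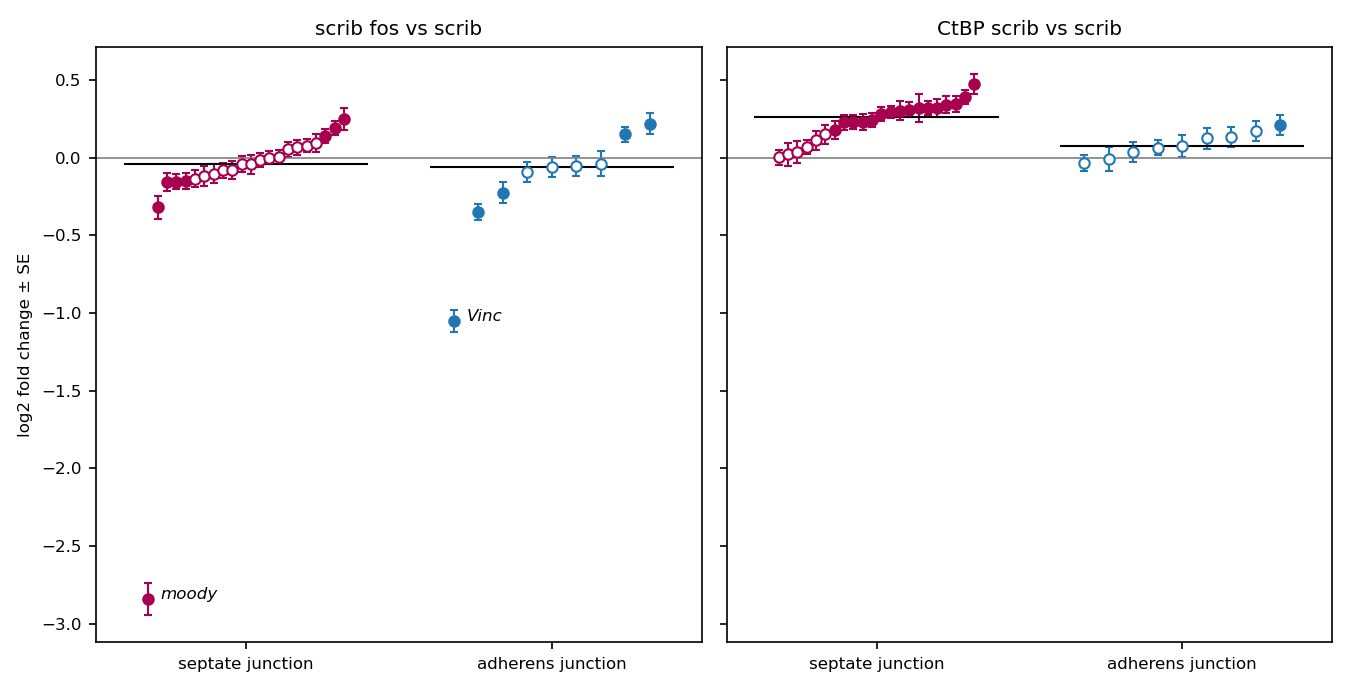
Log2 fold change ± SE (vertical axis) of each of the 22 septate and 9 adherens junction genes in scrib fos (left) and CtBP scrib (right) against scrib, ordered by value within a type. Filled points were called, open points were not, and the black bar is the median of the type: in CtBP scrib 16 septate junction points are filled and above 0, and in scrib fos moody and Vinc lie far below the rest.

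The core adhesion genes were among those that rose. The neurexin gene Nrx-IV (FBgn0013997; chromosome 3L, dm6 positions 12146519 to 12156990) is needed for the septa to form. It had 787, 807 and 789 CPM in CtBP scrib libraries, against 692, 641 and 591 in scrib libraries. In fos libraries it had 616, 621 and 621 CPM, in CtBP libraries 606, 644 and 633, in scrib fos libraries 592, 581 and 560, and in control libraries 628, 623 and 617. Every CtBP scrib library lay above every library of the other genotypes, and the scrib fos libraries lay below those of fos, CtBP and control. Nrx-IV was higher in CtBP scrib than in scrib by 0.31 (SE 0.05, edgeR adjusted p = 0.000112) and than in control by 0.35 (SE 0.05, edgeR adjusted p = 4.61e-06). In scrib alone it was not called against control (0.04, SE 0.05, edgeR adjusted p = 0.505).

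The scaffold gene cora (FBgn0010434; chromosome 2R, 19229063 to 19243751) encodes Coracle, a band 4.1 protein that binds the tail of Nrx-IV. It had 810, 871 and 823 CPM in CtBP scrib libraries and 657, 586 and 560 CPM in scrib libraries. Levels were 550, 544 and 546 CPM in fos, 486, 580 and 561 in CtBP, 543, 535 and 583 in scrib fos and 527, 542 and 542 in control libraries. Again the CtBP scrib libraries stood above all others without overlap. The difference was 0.47 from scrib (SE 0.06, edgeR adjusted p = 1.27e-05) and 0.64 from control (SE 0.06, edgeR adjusted p = 3.54e-08).

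Other core members followed in CtBP scrib against scrib. The immunoglobulin-family genes Cont (0.32; 1070 ± 29.5 against 856 ± 73.5 CPM) and Nrg (0.34; 852 ± 37.3 against 672 ± 55.6 CPM) rose, as did the scaffold gene vari (0.29), the complement-related gene Mcr (0.30) and the transferrin-like gene Tsf2 (0.28). Fas3, a homophilic adhesion gene, was 0.23 higher than in scrib (716 ± 11.9 against 611 ± 24.3 CPM), yet in CtBP scrib it was not called against control (0.04, edgeR adjusted p = 0.461). The immunoglobulin-family gene Lac rose by 0.18 (edgeR adjusted p = 0.0372), a call that ended without CtBP scrib replicate 2 (0.0999) or 3 (0.164) or scrib replicate 1 (0.0648), 2 (0.12) or 3 (0.065) and with no filter (0.0745), over a range of 0.0105 to 0.164 for all alternatives.

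All 3 claudin genes, which encode small membrane proteins that shape the barrier, rose in CtBP scrib against scrib. They were sinu (305 ± 12.1 against 233 ± 5.65 CPM; 0.39, SE 0.05), pck (238 ± 7.54 against 187 ± 2.75 CPM; 0.35, SE 0.05) and kune (185 ± 6.75 against 158 ± 7.85 CPM; 0.23, SE 0.05). Of the 3 genes of Ly6-domain proteins that help assemble the junction, crok (0.24) and cold (0.32) rose and bou did not pass the test (0.04, edgeR adjusted p = 0.805). Among the sodium pump genes of the set, the beta subunit gene nrv2 rose (0.23, 306 ± 4.67 against 261 ± 6.55 CPM). The catalytic subunit gene Atpalpha was not called (0.11, 646 ± 13.3 against 598 ± 45.2 CPM, edgeR adjusted p = 0.239), and a difference between these genes was not tested. Without replicate 1 of all genotypes Atpalpha was called (edgeR adjusted p = 0.0226, range over alternatives 0.0226 to 0.566).

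Genes of the tricellular corners did not pass the test in CtBP scrib against either scrib or control. In alternatives M6 was called lower than in control with a filter of 5 CPM (edgeR adjusted p = 0.0383) and with only the compared genotypes (0.0399), and Gli was called higher than in scrib. Gli, which encodes Gliotactin, was at 390 ± 3.58 CPM in CtBP scrib, against 352 ± 31.7 in scrib and 389 ± 22.1 in control. The corner gene aka was at 435 ± 13.5 CPM in CtBP scrib, 429 ± 62.8 in scrib and 408 ± 8.06 in control. M6, a proteolipid gene whose exons overlap those of SAK on the opposite strand over 23.3% of their length, was at 133 ± 1.88 CPM in CtBP scrib, 133 ± 2.98 in scrib and 140 ± 0.480 in control. For Gli that was so without scrib replicate 1 (edgeR adjusted p = 0.0321) and without replicate 1 of all genotypes (0.0168), within a range of 0.0168 to 0.426 over the alternatives. Also uncalled against scrib was the polarity gene yrt (0.07), which was slightly higher than in control (0.18, edgeR adjusted p = 0.00195), and was called against scrib without scrib replicate 1 (0.0499; range 0.0499 to 0.739).

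Whether the effects of losing CtBP and scrib add up was tested by the interaction, the effect of CtBP loss in scrib discs minus that in discs with normal scrib. It was called above 0 for 8 of 22 septate junction genes and below 0 for none, where 10.5% of all tested genes were called, 5.43% above and 5.06% below. The 8 were cora (0.46, SE 0.09, edgeR adjusted p = 0.00165), Nrg (0.35), Mcr (0.31), Nrx-IV (0.30), sinu (0.29), pck (0.29), nrv2 (0.28) and crok (0.22). The call of Mcr ended without CtBP replicate 1 (0.0536) or scrib replicate 2 (0.0508), over a range of 0.000595 to 0.0536. That of crok ended without control replicate 2 (0.0588) or 3 (0.0581), CtBP replicate 2 (0.0607), CtBP scrib replicate 3 (0.0782) or scrib replicate 1 (0.0665), and without replicate 1 of all genotypes (0.0712), over a range of 0.0085 to 0.0782. Cont (0.21, edgeR adjusted p = 0.127) passed without scrib replicate 1 (0.017) or replicate 1 of all genotypes (0.0223; range 0.017 to 0.279). Tsf2 (0.17, edgeR adjusted p = 0.109) passed without scrib replicate 1 (0.0438) and with DESeq2 (0.0295; range 0.0295 to 0.236), and moody (0.35, edgeR adjusted p = 0.102) without control replicate 2 (0.0222; range 0.0222 to 0.225). Of the 9 adherens junction genes none was called by edgeR or DESeq2 for this interaction, and 1 (Vinc) had an unadjusted p below 0.05.

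With CtBP loss alone, the share of septate junction genes called (13.6%) was near that of all tested genes. In CtBP discs 3 of 22 septate junction genes were higher than in control and none lower, where 14.5% of all tested genes were called, 7.0% higher and 7.46% lower. The 3 were vari (0.18; 415 ± 4.24 against 367 ± 9.79 CPM), Fas3 (0.18; 787 ± 7.50 against 697 ± 18.1 CPM) and cold (0.17; 100.4 ± 2.73 against 89.3 ± 0.254 CPM). The exons of vari overlap those of Pomp on the opposite strand over 15.2% of their length. The Fas3 call ended without control replicate 1 (0.0617) or 2 (0.0505) or replicate 1 of all genotypes (0.0502), over a range of 4.46e-05 to 0.0617. The call of cold ended without CtBP replicate 1 (0.0833) or control replicate 1 (0.0718), 2 (0.0635) or 3 (0.0563) or replicate 1 of all genotypes (0.144), over a range of 0.00608 to 0.144. No adherens junction gene was called in CtBP discs by edgeR or DESeq2, and 3 (cno, pyd and Vinc) had an unadjusted p below 0.05. Of these pyd was called higher without CtBP replicate 1 (edgeR adjusted p = 0.00937, range 0.00203 to 0.353) and Vinc lower without control replicate 2 (0.0374) or CtBP replicate 2 (0.0448) and with the filter of 5 CPM (0.0444; range 0.0374 to 0.729). Without replicate 1 of all genotypes cno (0.00566; range 0.00566 to 0.506), pyd (0.00203) and, of the septate junction genes, Gli (0.0188; range 0.0188 to 0.57) were called higher. With only the compared genotypes bou was called lower (0.0469; range 0.0469 to 0.37).

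**Figure D2:**
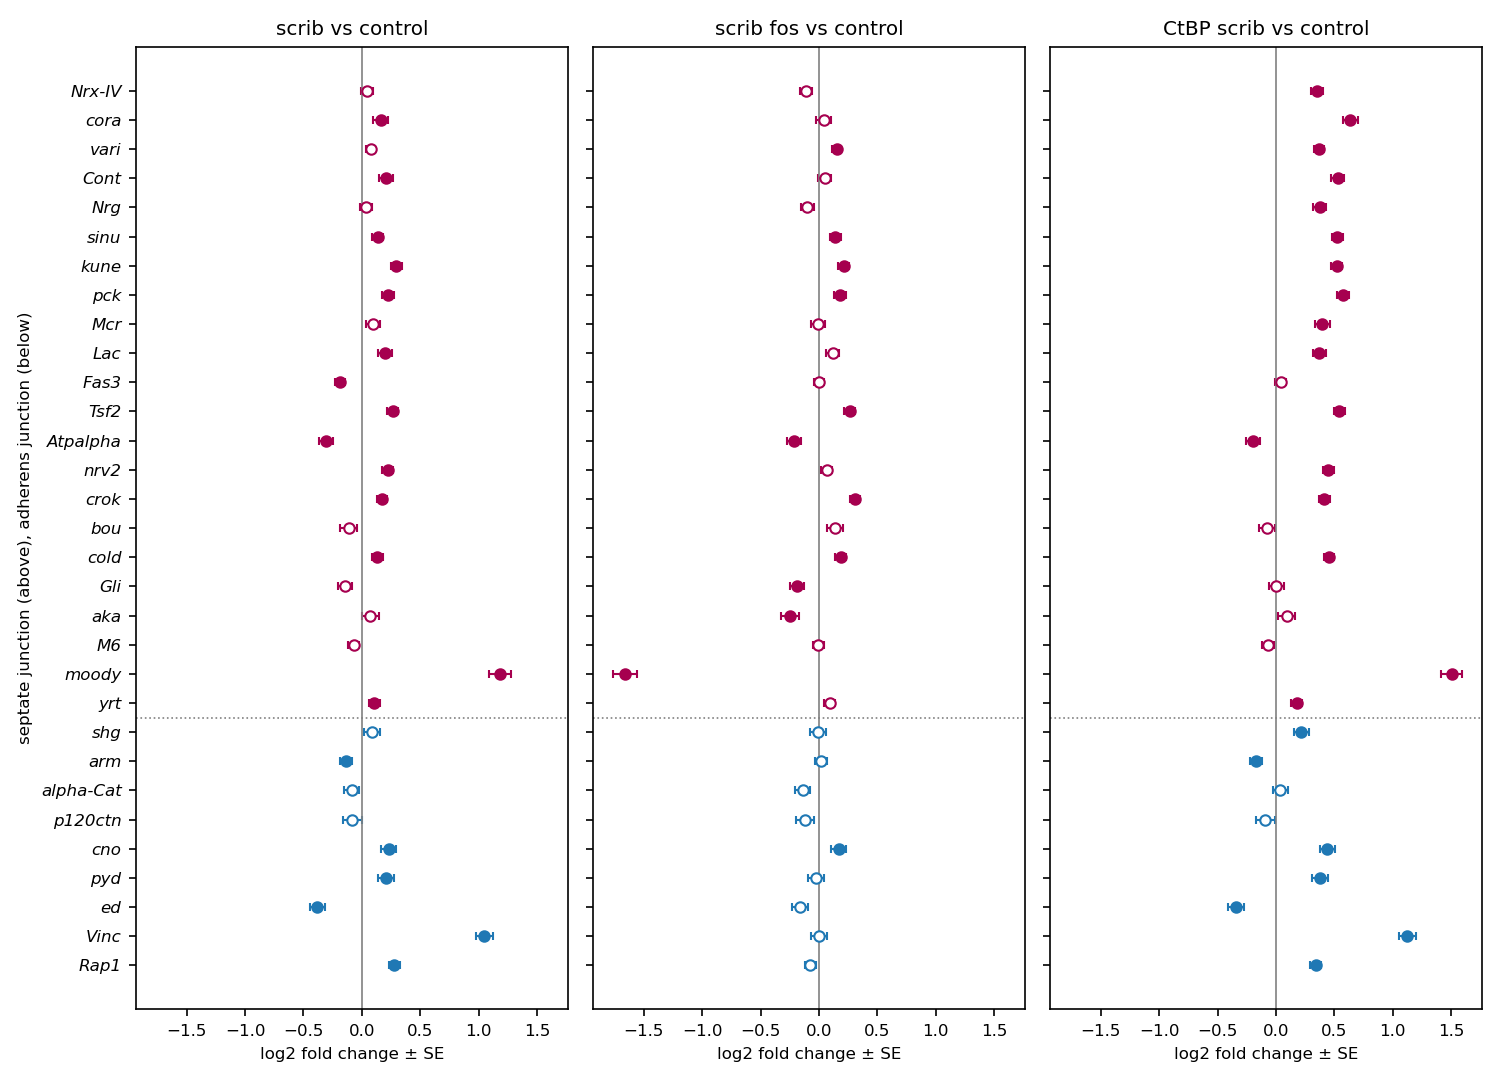
Log2 fold change ± SE (horizontal axis) against control of every septate (red, above the dotted line) and adherens (blue, below it) junction gene in scrib, scrib fos and CtBP scrib discs. Filled points were called at an edgeR adjusted p below 0.05, which holds for 17 septate junction genes in CtBP scrib, 14 in scrib and 11 in scrib fos.

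Loss of scrib alone changed 20 of the 31 junction genes, mostly by small amounts. Of the 22 septate junction genes 12 were higher and 2 lower in scrib discs than in control, where 53.5% of all tested genes were called, 27.8% higher and 25.7% lower. Leaving moody aside, the risers were led by kune (0.29; 158 ± 7.85 against 129 ± 2.85 CPM), Tsf2 (0.26; 345 ± 15.3 against 287 ± 2.10 CPM), pck (0.23) and nrv2 (0.22). Both fallers are membrane proteins: Atpalpha (-0.30, SE 0.06; 598 ± 45.2 against 738 ± 27.3 CPM, edgeR adjusted p = 0.000232) and Fas3 (-0.19, SE 0.04; 611 ± 24.3 against 697 ± 18.1 CPM, edgeR adjusted p = 0.00116). Atpalpha stayed below control in CtBP scrib too (-0.19, edgeR adjusted p = 0.00864), a call that ended without control replicate 2 (0.0546; range 0.000207 to 0.0546).

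Of the 12 rises in scrib, those of kune, pck, Lac, Tsf2, nrv2, crok and moody were called under every alternative run. The rise of cora (0.16, edgeR adjusted p = 0.0389) was not called without scrib replicate 1 (0.152) or control replicate 1 (0.0797) or 2 (0.0518). It was also not called with DESeq2 (0.0561), DESeq2 size factors (0.0633), no filter (0.06), the filter of 5 CPM (0.0945), only the compared genotypes (0.0643) or without replicate 1 of all genotypes (0.224), over a range of 0.0111 to 0.224 for all alternatives. The smallest rise, that of yrt (0.11, edgeR adjusted p = 0.0491), was lost without scrib replicate 1 (0.169) or control replicate 1 (0.0764) or 3 (0.0606). It was also lost with DESeq2 (0.0963), DESeq2 size factors (0.0905), no filter (0.124), the filter of 5 CPM (0.167), only the compared genotypes (0.154) and without replicate 1 of all genotypes (0.471), over a range of 0.00687 to 0.471. The calls of sinu and cold ended without scrib replicate 2 (0.0554 and 0.0653) and with the filter of 5 CPM (0.0689 and 0.0902), over ranges of 0.00934 to 0.0689 for sinu and 0.00362 to 0.0902 for cold. Cont kept its call with any single library left out and lost it without replicate 1 of all genotypes (0.0555; range 0.000833 to 0.0555). Among genes not called, Gli (-0.14, edgeR adjusted p = 0.0541) was called lower without scrib replicate 1 (0.0169) or control replicate 3 (0.0463), without replicate 1 of all genotypes (0.0304), with DESeq2 (0.0322), DESeq2 size factors (0.0407) and the filter of 5 CPM (0.016; range 0.016 to 0.38). Without scrib replicate 3, Mcr (0.0323; range 0.0323 to 0.941) and aka (0.0274; range 0.0274 to 0.764) were called higher.

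Of the 9 adherens junction genes 4 were higher and 2 lower in scrib than in control, beside 27.8% higher and 25.7% lower among all tested genes. The cadherin gene shg (FBgn0003391; chromosome 2R, 21049654 to 21057197) had 863, 753 and 691 CPM in scrib libraries and 829, 874 and 824 CPM in CtBP scrib libraries. It had 684, 714 and 705 CPM in fos, 701, 812 and 789 in CtBP, 737, 701 and 725 in scrib fos and 736, 720 and 718 in control libraries. The scrib libraries spread across the control range, and shg was not called in scrib (0.09, SE 0.07, edgeR adjusted p = 0.285), except without scrib replicate 3 (0.0351; range 0.0351 to 0.928). In CtBP scrib all 3 libraries lay above control and shg was called (0.22, SE 0.07, edgeR adjusted p = 0.00766).

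The beta-catenin gene arm (FBgn0000117; chromosome X, 1891401 to 1900646), whose protein joins the cadherin to alpha-catenin and also carries Wingless signals, was lower in scrib. It had 1087, 1030.1 and 1073 CPM in scrib libraries and 1019, 1052 and 1039 CPM in CtBP scrib libraries. Levels were 1133, 1171 and 1216 CPM in fos, 1095, 1240.2 and 1213 in CtBP, 1131, 1188 and 1218 in scrib fos and 1193, 1170.2 and 1136 in control libraries. Both scrib and CtBP scrib libraries lay below every control library. The difference was -0.13 in scrib (SE 0.05, edgeR adjusted p = 0.0315) and -0.17 in CtBP scrib (SE 0.05, edgeR adjusted p = 0.00653). In scrib the call ended without control replicate 1 (0.133), 2 (0.0994) or 3 (0.0534) or scrib replicate 2 (0.158) or 3 (0.0627) and with no filter (0.0502), over a range of 0.00487 to 0.158. Its partners alpha-Cat (-0.09) and p120ctn (-0.08) were not called in scrib, with edgeR adjusted p = 0.275 and 0.406.

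The nectin-like adhesion gene ed, which encodes Echinoid, fell in scrib (842 ± 97.2 against 1096 ± 23.0 CPM; -0.38, SE 0.07, edgeR adjusted p = 6.08e-05) and in CtBP scrib (864 ± 43.3 CPM; -0.34, SE 0.07, edgeR adjusted p = 0.000148). Of the genes for proteins that act between the junction and actin, cno, pyd, Vinc and Rap1 rose in scrib and alpha-Cat was not called. The gene cno, which encodes the afadin Canoe, was at 306 ± 34.1 CPM in scrib against 261 ± 7.71 in control (0.23, SE 0.06), and Rap1, a small GTPase acting with Canoe, at 373 ± 8.28 against 308 ± 6.49 CPM (0.28, SE 0.05). The ZO-1 gene pyd was 0.20 higher (edgeR adjusted p = 0.0152), a call that ended without scrib replicate 1 (0.0727; range 0.00313 to 0.0727). In CtBP scrib cno (0.44), pyd (0.37) and Rap1 (0.34) were also above control. The gene cno was the one adherens junction gene called against scrib in those discs (354 ± 6.90 against 306 ± 34.1 CPM; 0.21, edgeR adjusted p = 0.0264). That call ended without CtBP scrib replicate 1 (0.0588) or 2 (0.0855) or scrib replicate 2 (0.104) or 3 (0.129) and with only the compared genotypes (0.0679), over a range of 0.000186 to 0.129. Without scrib replicate 1, shg (0.0125; range 0.00532 to 0.603) and pyd (0.0093; range 0.00214 to 0.308) were called too.

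**Figure D3:**
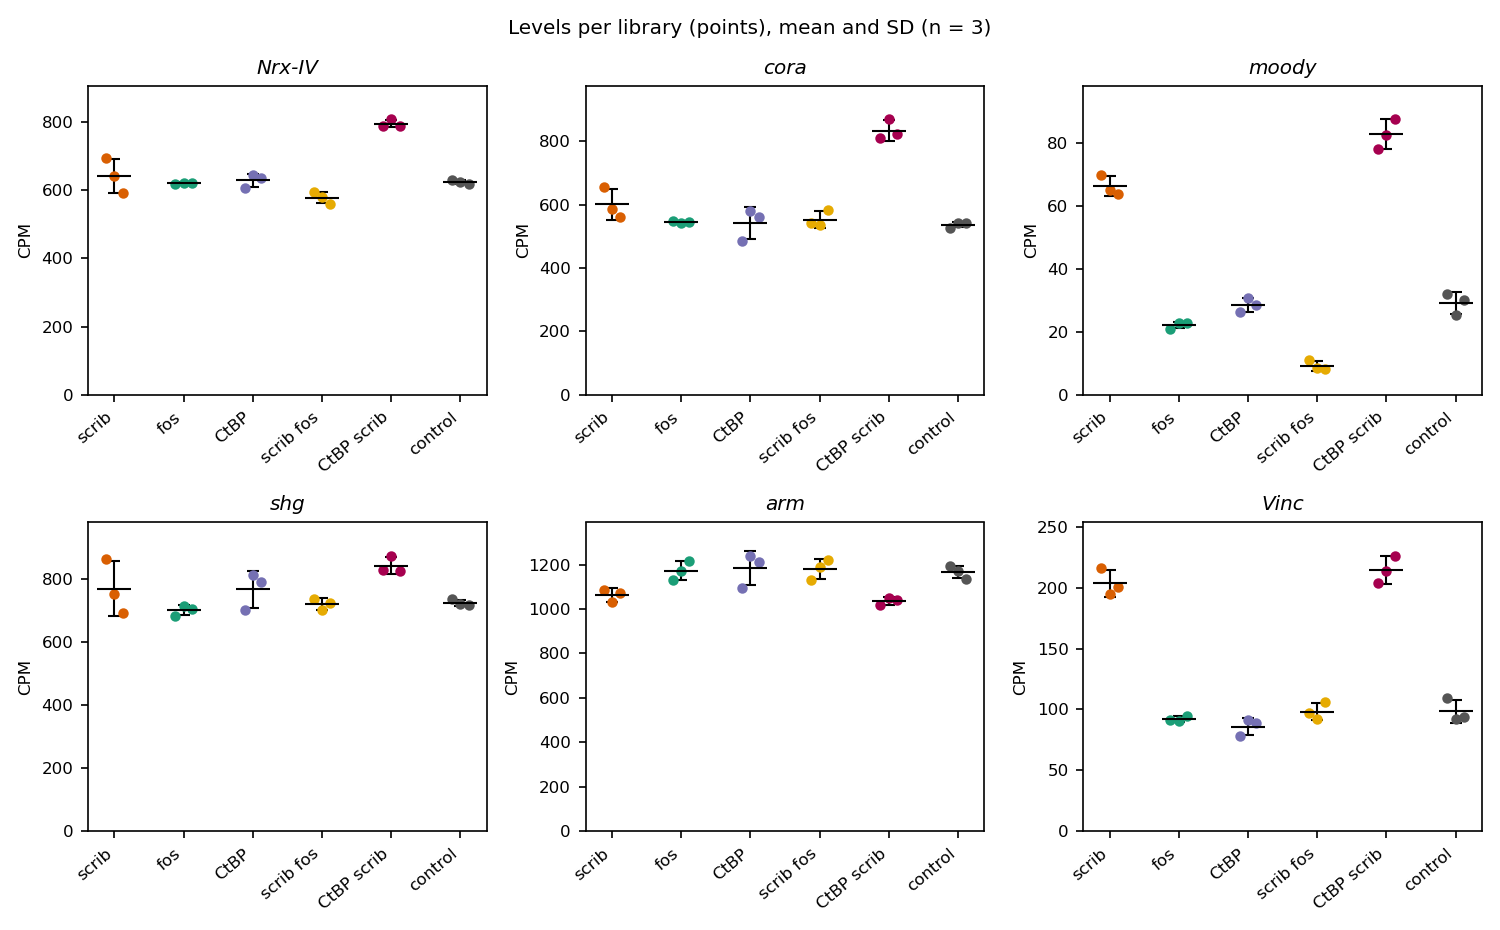
CPM in each library (points, replicates 1 to 3 from left to right) with mean and SD (n = 3, horizontal mark and bars) of 6 junction genes in the 5 mutant genotypes and control. Nrx-IV and cora are highest in the CtBP scrib libraries, and moody and Vinc are high in scrib and CtBP scrib and not in scrib fos, where moody is at 8.26 to 11.2 CPM.

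The largest changes of the set were those of moody and Vinc, and both genes were lower in scrib fos than in scrib. The gene moody (FBgn0025631; chromosome X, 2044292 to 2050120) encodes a G protein-coupled receptor known from the glia of the blood-brain barrier, where it regulates septate junctions. It had 70.02, 65.3 and 64.03 CPM in scrib libraries, 11.2, 8.39 and 8.26 in scrib fos libraries and 78.3, 82.8 and 87.8 in CtBP scrib libraries. In fos libraries it had 21.02, 22.7 and 22.9 CPM, in CtBP libraries 26.4, 30.9 and 28.4, and in control libraries 32.2, 25.4 and 30.1. Scrib and CtBP scrib stood apart above all other genotypes, and scrib fos stood apart below them.

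Against control moody was 2.27-fold higher in scrib (log2 1.18, SE 0.09, edgeR adjusted p = 4.25e-09) and 2.83-fold higher in CtBP scrib (log2 1.503, SE 0.09, edgeR adjusted p = 9.14e-11). In scrib fos it fell to 0.317 of the control level (-1.66, SE 0.10, edgeR adjusted p = 5.87e-10) and to 0.139 of the scrib level (-2.84, SE 0.10, edgeR adjusted p = 2.41e-13). The interaction of scrib with fos was -2.45 (SE 0.14, edgeR adjusted p = 7.21e-10). In fos alone the difference of -0.40 (SE 0.10) was not called (edgeR adjusted p = 0.0619) but was without control replicate 2 (0.0148) and with DESeq2 (0.0135), over a range of 0.0135 to 0.304. The excess in CtBP scrib over scrib (0.32, edgeR adjusted p = 0.0153) was not called without CtBP scrib replicate 3 (0.0769) or scrib replicate 2 (0.0544) or 3 (0.0614), over a range of 0.000607 to 0.0769.

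Glial markers, read as a sum, were at a lower level than in control in scrib, scrib fos and CtBP scrib alike. The summed level of 8 measured glial markers was 215 to 228 CPM in scrib, 231 to 247 in scrib fos, 181 to 194 in CtBP scrib and 361 to 378 CPM in control libraries. The 8 were repo, gcm, pnt, loco, wrapper, Eaat1, zyd and Indy. In scrib 5 of the 8 were lower and 1 (wrapper) was higher, and in scrib fos 6 were lower and 1 higher. In CtBP scrib 5 were lower and 1 higher. Of all tested genes, 25.7% were lower than in control in scrib, 24.5% in scrib fos and 28.3% in CtBP scrib, and 27.8%, 22.1% and 31.1% were higher. Compared with scrib, 4 of the 8 were higher and 1 lower in scrib fos, beside 17.6% higher and 20.2% lower among all tested genes. The pan-glial gene repo was at 4.50 ± 0.945 CPM in scrib, 7.24 ± 0.311 in scrib fos, 2.99 ± 0.739 in CtBP scrib and 16.05 ± 0.457 CPM in control. The glial regulator gcm was near 0, at most 0.761 CPM in any library. Adhesion genes such as Nrg, Cont and Nrx-IV are also used by neurons, and all 8 neuronal markers were lower in scrib, scrib fos and CtBP scrib than in control. Their sum was 146 to 174 CPM in scrib, 191 to 250 in scrib fos, 86.7 to 116 in CtBP scrib and 815 to 820.1 CPM in control libraries. Of 5 tracheal markers, 3 (pio and the cuticle genes serp and verm, which also stand among the septate junction relatives) were higher and none lower in CtBP scrib than in control, with sums of 3334 to 3484 CPM against 1333 to 1507 CPM. Their defining regulator trh stayed at or below 2.08 CPM in every library.

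Markers of the disc regions and of blood cells moved as well. All 4 eye disc markers were lower in CtBP scrib than in scrib, with sums of 140.3 to 191 CPM in CtBP scrib, 315 to 378 in scrib, 577 to 606 in scrib fos and 858 to 860 CPM in control libraries. In scrib fos all 4 were higher than in scrib. Of 3 genes listed as markers of the peripodial epithelium, the thin layer over the disc, 2 were higher and none lower in CtBP scrib than in scrib. They were hh, drm and lin, and whether their RNA came from that layer was not tested. The sums of the 3 were 566 to 619 CPM in CtBP scrib, 403 to 423 in scrib, 343 to 368 in scrib fos and 324 to 342 CPM in control libraries. Of 8 blood cell markers, 7 were lower in scrib fos than in scrib and 7 lower than in control (median -3.63), with sums of 80.1 to 102 CPM in scrib fos, 177 to 207 in scrib, 147 to 164 in CtBP scrib and 221 to 296 CPM in control libraries. In CtBP scrib 7 of the 8 were lower than in control too (median -1.01), and in scrib 4 were lower and 1 higher. Of 4 antennal markers, 3 were lower and none higher than in control in each of scrib, scrib fos and CtBP scrib. Among all tested genes, 9.57% were higher and 9.14% lower in CtBP scrib than in scrib, and 17.6% higher and 20.2% lower in scrib fos than in scrib. Against control, 25.7% were lower in scrib, 24.5% in scrib fos and 28.3% in CtBP scrib, and 27.8%, 22.1% and 31.1% were higher. The part of these cell types, glia, neurons and trachea in the junction values was not tested.

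Vinc (FBgn0004397; chromosome X, 2214347 to 2222567) encodes vinculin, which is recruited to adherens junctions under tension. It had 216, 194 and 201 CPM in scrib libraries, 96.8, 92.03 and 106 in scrib fos libraries and 204, 213 and 226 in CtBP scrib libraries. In fos libraries it had 91.4, 90.6 and 94.9 CPM, in CtBP libraries 77.9, 91.1 and 88.6, and in control libraries 109, 92.1 and 93.7. The scrib and CtBP scrib libraries stood about as high as each other, and the scrib fos libraries overlapped those of control. Vinc was 2.07-fold higher in scrib than in control (1.05, SE 0.07, edgeR adjusted p = 1.79e-10) and 2.18-fold higher in CtBP scrib (1.124, SE 0.07, edgeR adjusted p = 3.77e-11). It was 1.05 lower in scrib fos than in scrib (-1.05, SE 0.07, edgeR adjusted p = 3.85e-10), with an interaction of -0.96 (SE 0.10, edgeR adjusted p = 6.08e-07). Against control, the difference in scrib fos was -0.00082 (SE 0.07, edgeR adjusted p = 0.995).

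Beside these 2 genes, the called changes of junction genes in scrib fos against scrib were small, from -0.35 (Rap1) to 0.25 (bou) on the log2 scale. Against scrib, 3 of 22 septate junction genes were higher and 5, moody included, lower in scrib fos. That share called (36.4%) was near the 37.8% of all tested genes, of which 17.6% were higher and 20.2% lower. Of the 9 adherens junction genes 2 were higher and 3, Vinc included, lower (55.6% called). Rap1 was lower in scrib fos than in scrib (293 ± 12.1 against 373 ± 8.28 CPM; -0.35, SE 0.05, edgeR adjusted p = 8.17e-06), and its interaction was called (-0.27, SE 0.07, edgeR adjusted p = 0.00667). The corner gene aka was lower (344 ± 15.2 against 429 ± 62.8 CPM; -0.32, edgeR adjusted p = 0.00181) and Fas3 higher (698 ± 10.3 against 611 ± 24.3 CPM; 0.19, edgeR adjusted p = 0.00158).

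The remaining 8 calls between scrib fos and scrib each ended without at least 1 library. Lower in scrib fos were pyd (-0.23), Cont (-0.16), nrv2 (-0.16) and Nrx-IV (-0.15), and higher were bou (0.25), ed (0.22), arm (0.15) and crok (0.14). Without scrib replicate 1 the edgeR adjusted p was 0.237 for Cont, 0.14 for Nrx-IV, 0.107 for crok and 0.0817 for pyd. Without scrib replicate 2 it was 0.0875 for nrv2, 0.0812 for arm, 0.0663 for Cont and 0.0635 for Nrx-IV, and without scrib replicate 3 it was 0.0661 for nrv2 and 0.0626 for ed. Leaving out scrib fos replicate 1 gave 0.0633 for Cont. Leaving out scrib fos replicate 2 gave 0.0883 for Cont, 0.0543 for crok, 0.0531 for Nrx-IV, 0.0517 for arm and 0.0507 for pyd. Leaving out scrib fos replicate 3 gave 0.117 for nrv2, 0.0715 for Cont, 0.0665 for Nrx-IV and 0.0512 for bou. With only the compared genotypes the calls of Nrx-IV, Cont, nrv2, crok, arm, pyd and ed also ended (0.0557 to 0.165). Those of Nrx-IV (0.0963), Cont (0.148), crok (0.0657) and pyd (0.0524) ended without replicate 1 of all genotypes. No filter ended those of Nrx-IV (0.147), Cont (0.161) and nrv2 (0.123). DESeq2 size factors ended those of Nrx-IV (0.0579) and Cont (0.0856), and DESeq2 that of Cont (0.0731). Over these 8 calls the alternatives ranged from 0.00022 (ed) to 0.237 (Cont). Of the uncalled genes, vari was called higher with DESeq2 (0.00483) and M6 higher without scrib fos replicate 3 (edgeR adjusted p = 0.00274). Atpalpha was called higher without scrib replicate 1 (0.0433) or replicate 1 of all genotypes (0.00999). Nrg was called lower without scrib replicate 3 (0.0113).

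In the interaction of scrib with fos, 1 septate junction gene was called above 0 (bou, 0.32, edgeR adjusted p = 0.0229) and 1 below 0 (moody), where 23.2% of all tested genes were called, 10.6% above and 12.7% below. Of the 9 adherens junction genes 2 (Vinc and Rap1) were called below 0. The bou call ended without control replicate 2 (0.0616), fos replicate 1 (0.0522) or 2 (0.0721), scrib fos replicate 3 (0.0644) or scrib replicate 1 (0.0621), and without replicate 1 of all genotypes (0.0509), over a range of 0.00458 to 0.0721. Fas3 (0.17, edgeR adjusted p = 0.0574) was called without fos replicate 2 (0.0463), scrib fos replicate 3 (0.0402) or scrib replicate 1 (0.0285), with DESeq2 size factors (0.0335), the filter of 5 CPM (0.0307) and DESeq2 (0.00113; range 0.00113 to 0.131). At least 1 of the edgeR and DESeq2 alternatives also called M6 above 0 (range of adjusted p 0.0245 to 0.846). The same holds below 0 for aka (0.00876 to 0.314), pyd (0.0253 to 0.168) and Nrx-IV (0.039 to 0.478).

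Against control, scrib fos discs had 7 septate junction genes higher and 4 lower, where 46.6% of all tested genes were called, 22.1% higher and 24.5% lower. The claudin genes kune (0.21), pck (0.18) and sinu (0.14; edgeR adjusted p = 0.0753 without replicate 1 of all genotypes, range 0.000839 to 0.0753) were higher, as were crok (0.31; 89.6 ± 2.29 against 72.3 ± 0.855 CPM), Tsf2 (0.26), cold (0.19) and vari (0.15). Besides moody, the lower ones were aka (-0.25), Atpalpha (-0.21) and Gli (-0.19). The call of aka ended without scrib fos replicate 3 (0.0594; range 0.00114 to 0.0594) and that of Atpalpha without control replicate 2 (0.0553; range 0.0026 to 0.0553). For Gli it ended without control replicate 1 (0.129) or scrib fos replicate 2 (0.0804) or 3 (0.0544), or with no filter (0.0547; range 0.00804 to 0.129). Of the adherens junction genes cno was called (0.17, edgeR adjusted p = 0.0383), which ended without control replicate 3 (0.0714) or scrib fos replicate 1 (0.0841) or with the filter of 5 CPM (0.0665; range 0.00711 to 0.0841). Among genes not called, ed (edgeR adjusted p = 0.0509) was lower with that filter (0.0273) or only the compared genotypes (0.0298). It was also lower without replicate 1 of all genotypes (0.00907). Without scrib fos replicate 1, Lac (0.0366) and bou (0.0181) were called higher and alpha-Cat (0.0259) lower. Without replicate 1 of all genotypes Lac (0.00897) and bou (0.0403) passed too, as did Lac without control replicate 1 (0.0496). Nrx-IV was called lower with that filter (0.0351).

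Loss of fos alone gave no call among the 31 genes with edgeR, where 0.997% of all tested genes were called, 0.258% higher and 0.738% lower. DESeq2 called 1 of them (moody), and 1 (moody) had an unadjusted p below 0.05. The other 30 log2 fold changes ran from -0.10 (Lac) to 0.11 (ed).

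**Figure D4:**
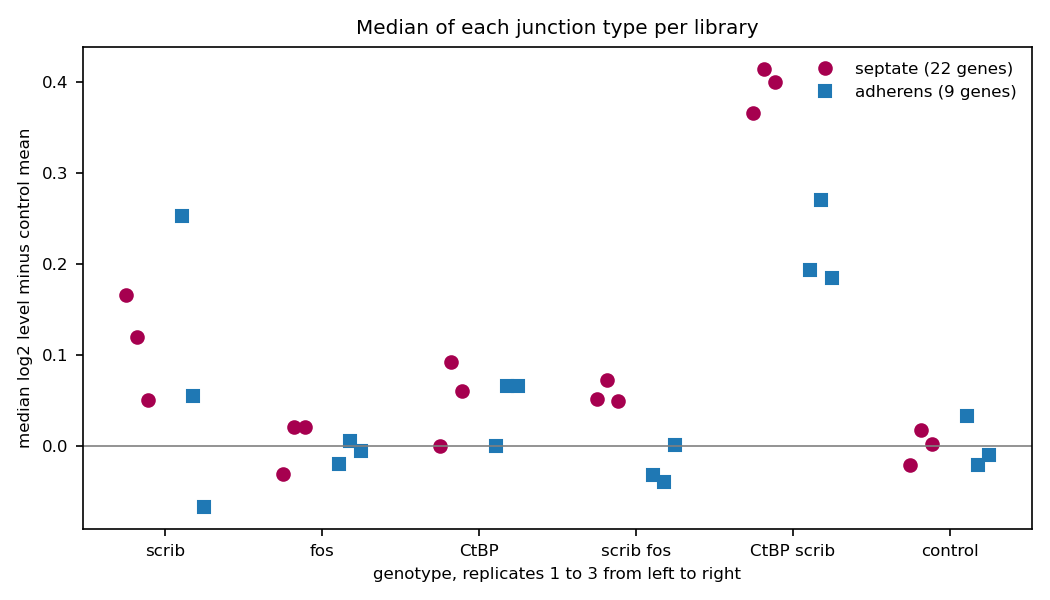
Median over the 22 septate (circles) and the 9 adherens (squares) junction genes of the log2 level in each library minus the control mean, for replicates 1 to 3 of each genotype. The CtBP scrib libraries are highest for septate junction genes, at 0.37 to 0.41, and their adherens junction medians are at 0.19 to 0.27.

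The junction types were set side by side in each library by the median of log2 levels minus the mean of control. In CtBP scrib libraries the septate junction medians were 0.37, 0.41 and 0.40, and the adherens junction medians 0.19, 0.27 and 0.19. In scrib fos libraries they were 0.05, 0.07 and 0.05 for septate and -0.03, -0.04 and 0.001 for adherens junction genes. In both double mutants the septate median thus lay above the adherens median in all 3 libraries. The gap was 0.17, 0.14 and 0.22 in CtBP scrib and only 0.08, 0.11 and 0.05 in scrib fos libraries. It was -0.09, 0.06 and 0.12 in scrib and -0.05, 0.04 and 0.01 in control libraries. The SD of the gap between replicates, pooled over genotypes, was 0.05. In scrib libraries the septate medians were 0.17, 0.12 and 0.05 and the adherens medians 0.25, 0.06 and -0.07, so the order of the types differed between replicates. In fos, CtBP and control libraries all medians lay between -0.03 and 0.09. These medians describe chosen genes and carry no test.

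Genes outside the 31 that are related to these junctions were read from lists of relatives. The septate list was broad and also held the cuticle genes serp and verm, the lipid phosphatase genes wun and wun2, and Nrt and Ama. Its largest rise in CtBP scrib against scrib (1.25) was also the largest among the tracheal markers, which share serp and verm with it. Of 16 measured septate junction relatives, 9 were higher and 2 lower in CtBP scrib than in scrib (median 0.27), where 9.57% of all tested genes were higher and 9.14% lower. The higher ones included pasi2 (0.39), crim (0.34) and pasi1 (0.23), which act in septate junction assembly. The 2 lower ones were nrv3 (-0.86), a sodium pump subunit gene, and Nrt (-0.48), and all but Nrt were picked after their values were seen. Picked in the same way, the polarity gene l(2)gl was at 633 ± 13.7 CPM in CtBP scrib and 509 ± 14.2 in scrib (0.31, edgeR adjusted p = 0.00117), while dlg1 was at 219 ± 4.33 and 212 ± 16.2 CPM (0.05, edgeR adjusted p = 0.591). The lipid phosphatase gene wun2 was at 83.9 ± 1.13 CPM in scrib, 10.4 ± 0.532 in scrib fos, 148 ± 12.7 in CtBP scrib and 8.92 ± 1.71 CPM in control. Its paralog wun was 2.13 higher in scrib than in control on the log2 scale. Nrt, a neural adhesion gene, fell in scrib (111 ± 5.26 against 403 ± 3.24 CPM). Of 17 measured adherens junction relatives, 2 were higher and 4 lower in CtBP scrib than in scrib (median 0.01). In scrib against control CadN, the neural cadherin gene, was lower (-2.06), as was Rapgap1 (-1.07), whose protein turns Rap1 off. Magi, a scaffold gene, was at 156 ± 7.17 CPM in scrib, 98.3 ± 2.00 in scrib fos, 190.2 ± 5.33 in CtBP scrib and 100.4 ± 2.32 CPM in control.

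By position, 5 of the 31 genes (Cont, Atpalpha, yrt, cno and pyd) lie on chromosome arm 3R, which carries the tested alleles, so for them the effect of those alleles and of other differences between the chromosomes cannot be told apart. The other members lie on 2L (9), 3L (6, Nrx-IV among them), X (6, among them arm, moody and Vinc) and 2R (5, among them cora and shg). Arm 3L belongs to the same chromosome as 3R, so for the 6 genes there such differences cannot be told apart either. Differences between the stocks on other chromosomes were not checked.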

How the data were processed

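RNA was sequenced in 18 libraries (6 genotypes, 3 each), and 1 deposited table gives raw read counts per gene. The tools named by the authors, per the submitters' processing notes, are Subread, featureCounts and edgeR, and the build is dm6. For tool versions, annotation, strand setting and filters nothing is given in the sources used here, and reads of genes that overlap on opposite strands could not be told apart. Symbols came from the reference tables (17425 of 17529 identifiers matched), and positions and exon lengths from the Ensembl annotation of the BDGP6 assembly (dm6 coordinates).

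The counts went into edgeR 4.0.16 (R 4.3.3). After filterByExpr, grouped by genotype, 10834 genes remained, which were scaled by TMM (factors 0.932 to 1.04) and fitted by robust glmQLFit in all libraries together, with a term for each genotype. That left 12 residual degrees of freedom, at a coefficient of biological variation of 8.88%. Tests were 2-sided with Benjamini-Hochberg adjustment over all genes. The SE is the size of the log2 fold change divided by the square root of F. RPKM used CPM and the union of exons. Library medians used log2 of CPM with a pseudocount of 0.5. The steps were tested on simulated data with added changes larger than most of those reported here. No interaction was simulated, so that test does not cover the small changes or the interactions.

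The members and lists were chosen with earlier results of these data known. Values per library are given for Nrx-IV, cora, shg, arm and each member called with a log2 fold change of at least 0.6 in size in scrib or a double mutant against control, or in a double mutant against scrib. Relatives and markers were named by the smallest p in scrib against control, apart from those said to be picked otherwise, the regulators repo, gcm and trh and the tissue genes eya and Dll. Alternatives were DESeq2 size factors in edgeR, the DESeq2 1.42.0 Wald test, no filter, a filter of 5 CPM in 3 libraries, only the compared genotypes, a replicate block, each library left out and replicate 1 of all genotypes left out. From the lists of relatives and markers hbs, zip and dys were not analysed here, and Ssk, hoka, CadN2, alrm and Ubx did not pass the filter.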

Additional observations from a re-analysis of the deposited data

Results flagged for a closer look

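The effect of scrib loss differed between discs with normal fos and fos mutant discs by the test of the difference itself, the interaction in edgeR, for moody and Vinc, beside the smaller interactions of Rap1 (-0.27) and bou (0.32). For moody the interaction was -2.45 on the log2 scale (SE 0.14, adjusted p = 7.21e-10). Every scrib fos library was below every fos library, and every scrib library above every control library. For Vinc it was -0.96 (SE 0.10, adjusted p = 6.08e-07), with 3 of 3 scrib libraries above every control library. For scrib fos, 2 of 3 libraries lay above every fos library. The interactions of moody and Vinc were called under every alternative run.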

How the results depend on the processing

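Of 279 results (31 members in 9 comparisons), 217 kept their side of the threshold in every alternative, and no called direction reversed. DESeq2 size factors moved the median of all genes by at most 0.025 on the log2 scale. Replicate numbers were not taken to pair the libraries. Of 45 same-number pairs 15 correlated above 0.1 (range -0.16 to 0.20) and 30 did not, and among pairs with different numbers a smaller share, 9 of 90, did. Of the 15, 8 were between replicates 1, which had the highest Hsp70 share in each genotype, 1 between replicates 2 and 6 between replicates 3. Whether libraries of the same number share a batch was not tested. A fit with a replicate block called 13 septate members in scrib against control (14 without the block) and ended only the call of yrt (adjusted p = 0.0621). Counts of called members that moved past 1.5 times are these; the cause was not tested. For septate members in fos against control the count was 1 with the DESeq2 Wald test. For adherens members in CtBP against control it was 1 with the filter of 5 CPM and 2 without replicate 1 of all genotypes. For adherens members in scrib fos against control it was 2 with only the compared genotypes and 2 without replicate 1. In scrib fos against scrib, there were 5 septate members with no filter and 4 with only the compared genotypes, which also left 2 adherens members. The septate minus adherens median there was 0.0838 without replicate 1 of all genotypes. For adherens members in CtBP scrib against scrib the count was 0 with only the compared genotypes and 3 without replicate 1. For the interaction of scrib with fos there was 1 septate member without replicate 1.

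With each library left out in turn, the septate minus adherens median ran from -0.00669 to 0.0898 in scrib against control and 0.0167 to 0.0849 in scrib fos against scrib, and calls over all genes in fos against control from 57 to 96. Septate members called ran from 0 to 1 in fos and 1 to 3 in CtBP against control, 5 to 8 in scrib fos against scrib and 1 to 4 for the interaction of scrib with fos. Adherens members ran from 0 to 1 in CtBP and 0 to 1 in scrib fos against control, 3 to 5 in scrib fos against scrib and 0 to 3 in CtBP scrib against scrib. In CtBP scrib, septate members called ran from 16 to 17 against control and 14 to 17 against scrib.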
